A study of Caenorhabditis elegans with 4 samples.

Results

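The 5 actin genes of Caenorhabditis elegans, act-1, act-2, act-3, act-4 and act-5, were followed through an eCLIP experiment, in which RNA crosslinked to a protein by UV light is sequenced after immunoprecipitation of that protein. Peaks were assigned to a gene when they shared at least 1 bp with it on either strand, by the gene coordinates of assembly WBcel235. This gave 18 of the 2664 peaks listed for MSTR-1 CLIP and 7 of the 310 peaks listed for N2 CLIP. All 5 genes had MSTR-1 peaks, and act-1, act-3 and act-4 also had N2 peaks.

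The experiment has 4 libraries, all from whole lysate of young adults that had lived at 25 °C and received UV light of 1.2 mJ/cm2. In 2 immunoprecipitations, biological replicates by the design text, the worms carried the allele on49[MSTR-1::3xFLAG], a FLAG tag in the gene F22D6.2 on chromosome I. These are called library A and library B, since the columns do not say which is replicate 1 or 2. The other libraries were 1 size-matched input of the same tagged genotype and 1 immunoprecipitation from N2 worms, which carry no FLAG tag and so give the background of the procedure. Because whole worms were used, fewer cells of a type and less RNA per cell cannot be told apart. Of the marker genes listed for 4 tissues, peaks lay over 4 of 4 for body wall muscle, 4 of 6 for the intestine (act-5 among them), 3 of 4 for the germ line and 2 of 3 for the epidermis.

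Actin is the protein of thin filaments in muscle and of the cytoskeleton in all cells. In C. elegans, act-1 to act-4 encode near-identical actins used in muscle and, in part, in the cytoplasm of other cells, with act-2 known also for its role in the early embryo. The product of act-5 is a diverged actin of the microvilli of intestinal and excretory cells. Short reads from near-identical copies can match more than 1 gene, and how such reads were placed was not stated in the sources used here. Values of the single copies act-1 to act-4 are therefore uncertain, and the sum over these 4 copies is given beside them.

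The genes act-1, act-2 and act-3 form a cluster on chromosome V, where act-3 lies at 11071690 to 11073264, act-2 at 11076777 to 11078154 and act-1 at 11081052 to 11082415. The gene act-4 lies on the X chromosome at 4960621 to 4964413 and act-5 on chromosome III at 13604412 to 13606066. The MSTR-1 peaks covered 71.0% of the length of act-1, 69.3% of act-3, 63.1% of act-2, 52.0% of act-5 and 27.7% of act-4, with 3 peaks each on act-1 and act-2 and 4 each on the others. Exons and UTRs are not named here, as the gene table gives gene extents only. Peaks were listed on the plus strand for act-2, act-3 and act-5 and on the minus strand for act-1 and act-4. Annotated ncRNA genes lie inside act-1 (T04C12.30) and act-3 (T04C12.26 and T04C12.17), so 3 of the 18 peaks also overlap another gene.

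**Figure D1:**
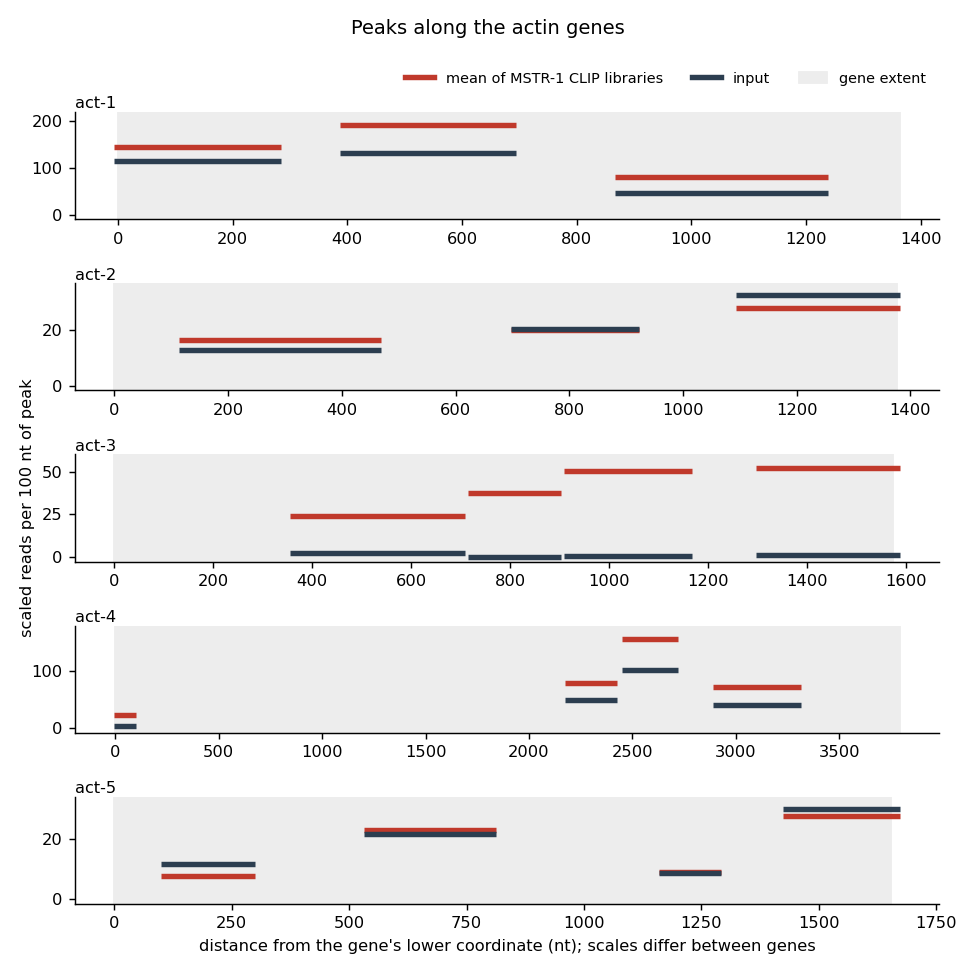
Peaks of the MSTR-1 table along each actin gene, with the distance from the gene's lower coordinate in nt on the horizontal axis and scaled reads per 100 nt of peak on the vertical axis, as the mean of both MSTR-1 CLIP libraries (red) and as the input (dark). Along act-3 the input lies near 0 under each CLIP peak, while along act-2 and act-5 the input and CLIP levels are close.

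The actin copies differed widely in their relation to the input. Reads over act-3 were abundant in both CLIP libraries and nearly missing from the input. With the authors' scaling, act-1 and act-4 were moderately higher in CLIP, and act-2 and act-5 were near the level of the input. Apart from act-3, these relations moved with the scaling, as given below. All values below are reads divided by the authors' size factor of the library (scaled reads), unless whole reads are named.

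Over act-3, library A had 426 reads, library B 630 and the input 8, or 463, 413 and 11.5 scaled reads. The fold over the input was 40.1 in library A (exact 95% interval from counting error 20.2 to 93.5) and 35.8 in library B (18.04 to 83.2). The CLIP libraries were thus close to each other, and both lay far above the input. Each of the 4 peaks of act-3 showed this. The first had 81 reads in library A and 127 in library B, against 5 for the input. In the same order the second had 62, 111 and 0, the third 137, 171 and 1, and the fourth 146, 221 and 2.

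The second act-3 peak was at least 15.6-fold higher in library A and at least 16.8-fold higher in library B than an input set at 3 reads, while the exact counting limits against its 0 input reads were 12.3 and 13.4. For the third, with 1 input read, the fold was 103 in library A (18.2 to 4103) and 77.7 in library B (13.8 to 3086). The fourth stood at 55.0-fold (14.9 to 458) and 50.2-fold (13.7 to 417), and the first at 12.2-fold (5.02 to 38.6) and 11.5-fold (4.82 to 36.1). In limma's fit over all 2664 peaks, on log2(scaled reads + 1) with Benjamini-Hochberg adjustment, the log2 changes from the first to the fourth peak were 3.40 (SE 0.40), 6.15 (SE 0.57), 5.74 (SE 0.42) and 5.29 (SE 0.38). The adjusted p values were 1.20e-15, 4.11e-24, 3.41e-39 and 8.85e-41, and edgeR on the recovered reads gave adjusted p of 8.55e-09 or lower for each. In this fit limma took the spread of each peak from the trend over all peaks, and the spread between inputs is not in it. Over inputs of 0 to 5 reads, the counting intervals above are wider than these SE imply. DESeq2's test also called each of the 4 act-3 peaks, with a larger adjusted p than either. Only 24 of 2664 peaks (0.901%) had at most 5 input reads with at least 60 reads in each CLIP library, limits set after the act-3 values were seen. Of these peaks 4 lay on act-3, 8 on histone genes, 8 on collagen genes of the col family and 4 elsewhere.

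Over act-1, the most abundant copy, there were 1228, 1946 and 629 reads in library A, library B and the input, or 1333, 1275 and 907 scaled reads. Both CLIP libraries lay above the input, at 1.47-fold (1.33 to 1.62) and 1.41-fold (1.28 to 1.54). Of its 3 peaks, the one at 11081918 to 11082290 was higher in CLIP (mean fold 1.74, log2 change 0.80, SE 0.24, limma adjusted p = 0.0078). Its call was lost with TMM scaling (log2 change 0.36, adjusted p = 0.26), DESeq2's size factors (0.40, adjusted p = 0.30) and DESeq2's test (adjusted p = 0.059). The middle peak, with 558, 867 and 280 reads, had a mean fold of 1.45 (limma adjusted p = 0.070), and the one nearest the lower coordinate, with 393, 626 and 230 reads, had 1.26 (limma adjusted p = 0.40).

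The gene act-4 gave 909, 1399 and 402 reads, or 987, 917 and 580 scaled reads. It stood at 1.70-fold (1.51 to 1.92) in library A and 1.58-fold (1.41 to 1.77) in library B. A small peak at 4960617 to 4960720, apart from the others, had 19 and 42 CLIP reads against 3 in the input. Its fold was 4.77 (1.40 to 25.2) in library A and 6.36 (2.03 to 32.1) in library B, with a limma adjusted p of 0.0042. The large peaks at 4963069 to 4963340 and 4963510 to 4963934 were also higher, with mean folds of 1.53 and 1.74 and limma adjusted p of 0.044 and 0.0078. By edgeR the first of these missed the threshold (adjusted p = 0.11), and both missed it with TMM scaling (adjusted p = 0.66 and 0.26), DESeq2's size factors (0.64 and 0.30) and DESeq2's test (0.14 and 0.060). The small act-4 peak missed it with DESeq2's test alone among these (adjusted p = 0.20). The remaining peak, with 209, 260 and 85 reads, had a mean fold of 1.62 and a limma adjusted p of 0.055.

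The least abundant of the 4 near-identical copies in the CLIP libraries was act-2, with 164, 290 and 129 reads in the same order, or 178, 190 and 186 scaled reads. The input lay between the CLIP libraries, at folds of 0.957 (0.755 to 1.21) and 1.02 (0.827 to 1.27). None of the 3 act-2 peaks passed limma's test (mean folds 1.27, 0.974 and 0.857, adjusted p of 0.69, 0.96 and 0.77).

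For the intestinal actin act-5 the reads were 132 in A, 267 in B and 117 in the input, or 143, 175 and 169 scaled reads. The input again lay between the CLIP libraries, with folds of 0.849 (0.657 to 1.099) in library A and 1.04 (0.831 to 1.30) in library B. Its peaks had mean folds of 0.656, 1.06, 1.04 and 0.924 along increasing coordinate, and limma's adjusted p was 0.63 or higher for each.

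**Figure D2:**
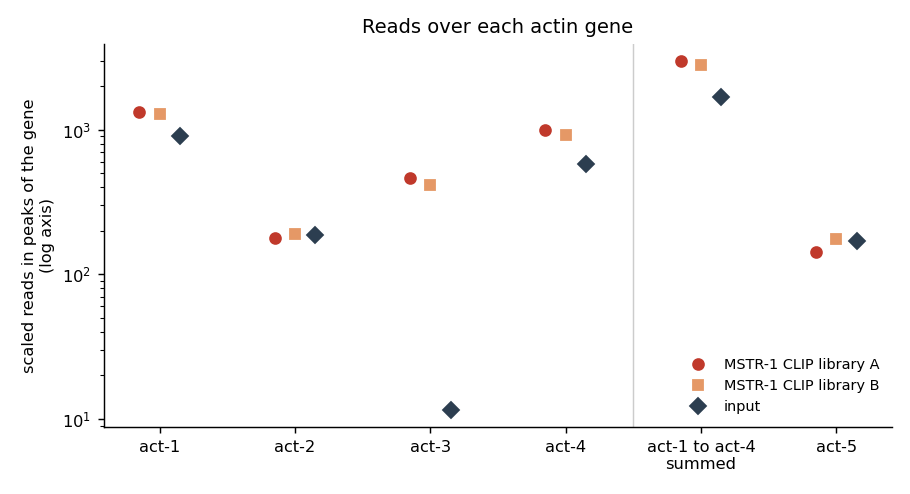
Scaled reads in the peaks of each actin gene and of act-1 to act-4 summed, on a log axis, in MSTR-1 CLIP library A (circles), library B (squares) and the input (diamonds). The act-3 input point, 11.5 scaled reads, lies far below the act-3 CLIP points, 463 and 413, while the points of act-2 and of act-5 nearly coincide.

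Counted over all members, 8 of the 18 actin peaks were higher in CLIP than in the input and 0 were lower in limma's fit, where 12.7% of all listed peaks were higher and 1.76% lower. The 8 were the 4 peaks of act-3, 3 of act-4 and 1 of act-1. The median log2 change was 0.57 over the 18 peaks and 0.45 over all 2664. The deposited fold, both CLIP columns summed over the input, exceeds 1 at each listed peak, so the peaks were already selected against this same input. With TMM scaling 5 actin peaks were higher, against 8.86% of all peaks (9.05% were lower), and with column totals 4 were higher and 13 lower, against 2.14% and 51.1%. The 4 act-3 peaks were higher under each of these scalings, whereas 8 peaks of act-1, act-2, act-4 and act-5 that lay above the input lay below it with column totals. limma without a variance trend called 0 of the 18 peaks and 0 of all 2664 (5 and 380 with an unadjusted p under 0.05). DESeq2's test called 4 higher, the act-3 peaks, against 11.5% higher and 0.411% lower of 1218 peaks with an adjusted p. The scaling moved the median log2 change of all peaks from 0.45 to 0.058 with TMM, 0.092 with DESeq2's size factors and -1.48 with column totals. Column totals count all reads in listed peaks, ribosomal RNA included. Peaks over the ribosomal RNA gene rrn-3.1 alone held 154164 of the 408945 input reads. Their log2 ratio to the input was 2.79 in library A and 2.60 in library B with the authors' scaling. Library A and library B were close at the actin peaks, with a median absolute log2 difference of 0.16 against 0.48 over all peaks. Most actin peaks hold more reads than the median listed peak (15 in A and 24 in B), and no comparison at like depth was made. The widest difference was 1.01, at the third act-5 peak, with 7 and 25 reads.

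The share of actin reads held by each copy does not depend on the scaling between libraries. Of all reads in actin peaks, act-3 held 14.9% in library A (exact Clopper-Pearson 95% interval 13.6 to 16.3), 13.9% in B (12.9 to 14.9) and 0.623% in the input (0.269 to 1.22). The share of act-5 was 4.62% (3.88 to 5.45) and 5.89% (5.22 to 6.62) in the CLIP libraries and 9.11% (7.59 to 10.8) in the input. That of act-2 was 5.74% (4.91 to 6.65), 6.40% (5.70 to 7.15) and 10.04% (8.45 to 11.8). The share of act-1 was 43.0% (41.1 to 44.8), 42.9% (41.5 to 44.4) and 48.9% (46.2 to 51.7). Thus act-3 took a larger share in both CLIP libraries, and act-1, act-2 and act-5 a smaller one. The shares make up a fixed total, so the rise of act-3 alone lowers the others. The fold of act-1 over the input (1.47 in library A and 1.41 in B) was close to that of act-1, act-2 and act-4 summed (1.49 and 1.42). The smaller share of act-1 therefore does not show that it fell behind those copies. The share of act-4, at 31.8%, 30.9% and 31.3%, differed by less than the counting error. Intervals cover counting error only.

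**Figure D3:**
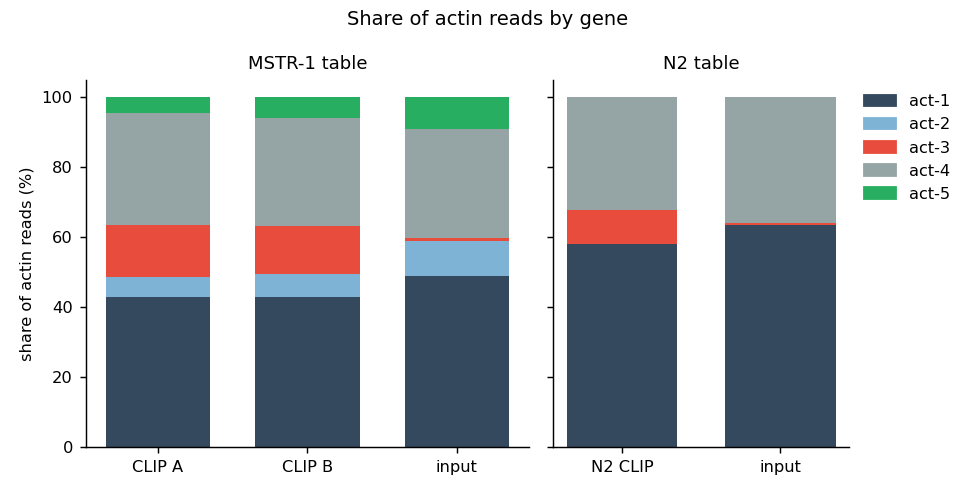
Share of actin reads, in percent, on each actin gene, for the 18 actin peaks of the MSTR-1 table (left) and the 7 of the N2 table (right), where act-2 and act-5 have no peak. The act-3 segment is 14.9% and 13.9% in the MSTR-1 CLIP libraries and 9.72% in N2 CLIP, and under 1% in the input of either table.

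Summed over the near-identical copies, act-1 to act-4 had 2727, 4265 and 1168 reads in A, B and the input, or 2961, 2794 and 1685 scaled reads. Both CLIP libraries lay above the input, at 1.76-fold (1.64 to 1.88) and 1.66-fold (1.55 to 1.77). In limma's fit over 1669 gene rows, in which 13.4% were higher and 1.86% lower, the summed copies were higher in CLIP (log2 change 0.77, SE 0.18, adjusted p = 0.00021). Without act-3, an alternative added after its input reads were seen, the fold of the remaining copies was 1.49 and 1.42 in the CLIP libraries (log2 change 0.54, SE 0.18, limma adjusted p = 0.019). With TMM scaling the change of the 4 summed copies was 0.36 (adjusted p = 0.13), and with column totals it was -1.49.

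For act-5 the same fit gave a log2 change of -0.091 (SE 0.25, 95% interval -0.59 to 0.40, limma adjusted p = 0.90), an interval that reaches from 0.666-fold to 1.32-fold. With TMM scaling the change of act-5 was -0.50 (95% interval -0.96 to -0.051), and with DESeq2's size factors it was -0.43 (-0.93 to 0.060), neither called. With the authors' scaling, the median over all other genes was 0.45, and over the 233 other genes with at least 100 input reads it was -0.26. Of these 233 genes 88.4% had a lower change than act-1 to act-4 summed and 62.2% a lower one than act-5.

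**Figure D4:**
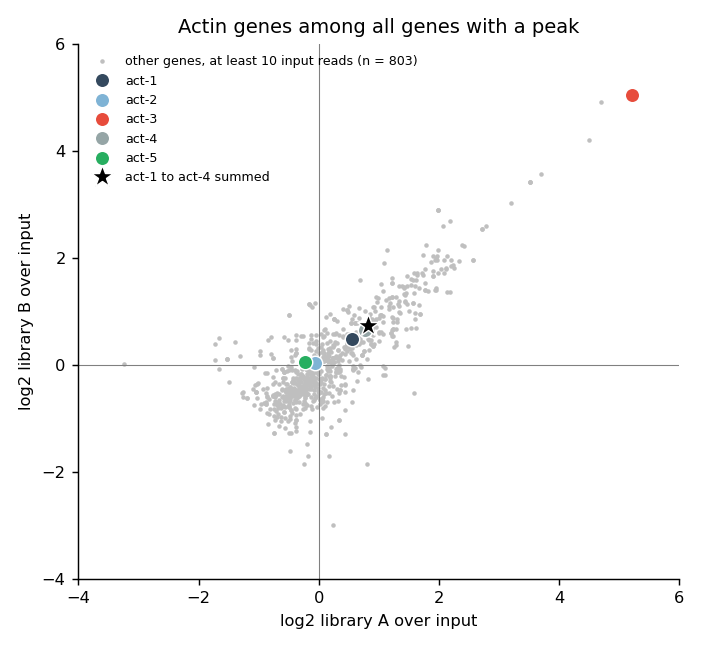
The log2 ratio of library A over the input (horizontal) and of library B over the input (vertical), with 1 added to each scaled value, for the actin genes and for 803 other genes with at least 10 input reads, 4 of which lie beyond the axes. The points of act-2 and act-5 lie near 0 in both libraries, act-1 and the summed copies above 0 in both, and act-3 near 5; the act-4 point lies under the star of the summed copies.

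Whether intestinal act-5 differed from the muscle and cytoplasmic actins was tested on the ratio of each gene to act-1 to act-4 summed. Relative to these copies act-5 was lower in CLIP than in the input (log2 difference -0.86, SE 0.22, 95% interval -1.30 to -0.43, limma adjusted p = 0.00058), as it was in both libraries (-1.05 in library A and -0.68 in library B). In this fit 18.0% of 1668 genes were lower and 7.49% higher. The difference was -0.63 (SE 0.22, limma adjusted p = 0.022) without act-3. DESeq2 gave -0.85 with an adjusted p of 0.18 and limma without a trend an adjusted p of 0.39, so the call was lost there. Relative to act-2 alone, chosen after its values were seen, the difference was -0.075 (SE 0.32, 95% interval -0.70 to 0.55, limma adjusted p = 0.93), so that act-5 could not be told from that copy. With a single input, the spread between inputs is in none of these p values, and limma pooled the spread between the CLIP libraries over genes of similar level.

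By length, in scaled reads per kb of peak, the order of the levels in library A was act-1 (1376), act-4 (940), act-3 (424), act-2 (205) and act-5 (167). Library B had the same order, with 1316, 873, 378, 218 and 203. In the input the order was act-1 (936), act-4 (552), act-2 (214), act-5 (196) and act-3 (10.6). The shares of the neighbours act-2 and act-5 had overlapping counting intervals in each of these libraries, and act-3 moved from the middle of the order to its end.

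Over 1 of the act-3 peaks, reads also exceeded the input in CLIP of N2 worms. The input is the same single library in both tables, so its few act-3 reads are no second observation, and the folds of N2 and MSTR-1 CLIP share them. As this input comes from the tagged genotype, the N2 folds also compare worms of different genotype. Over the act-3 N2 peak (chromosome V, 11073096 to 11073226) there were 31 reads in N2 CLIP and 2 in the input, a fold of 44.4 (11.3 to 383). The MSTR-1 peak that holds it stood at 55.0-fold and 50.2-fold, likewise over 2 reads of that library. Among the reads of N2 peaks over act-1, act-3 and act-4, act-3 held 9.72% in N2 CLIP (6.70 to 13.5) and 0.327% in the input (0.0396 to 1.18). Over the MSTR-1 peaks that overlap them it held 6.45% and 6.27% in the tagged CLIP libraries and 0.194% of the input reads. At this peak, which also overlaps the ncRNA gene T04C12.17, the excess over the input was thus present in the immunoprecipitation without a FLAG tag. The other act-3 peaks overlapped no N2 peak and have no N2 value here. What leads to the excess was not tested.

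The 3 N2 peaks over act-1 had 185 reads in N2 CLIP and 389 in the input, at 1.36-fold (1.14 to 1.63), and the 3 over act-4 had 103 and 221, at 1.33-fold (1.05 to 1.69). Single N2 folds were 1.14, 2.002 and 1.21 along act-1, beside mean folds of 1.26, 1.45 and 1.74 at the overlapping MSTR-1 peaks. Along act-4 they were 1.01, 1.62 and 1.45, beside 1.62, 1.53 and 1.74. A moderate excess of act-1 and act-4 over the input was thus also measured without the tag, although it turned below 1 with column totals, and the N2 fold was the higher one at 2 of these 6 peaks. N2 CLIP is a single library and each table was scaled separately, so no test was made between them, and the overlapping peaks differ in extent. Of the 18 MSTR-1 actin peaks 7 overlapped an N2 peak, against 8.75% of all MSTR-1 peaks. The N2 list holds no peak under 11 reads, and act-2 and act-5, which have the fewest CLIP reads among the actins, have no N2 value here. Of the N2 actin peaks 2, that of act-3 and the middle one of act-1, were at least 2-fold over the input, against 74.8% of all N2 peaks.

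**Figure D5:**
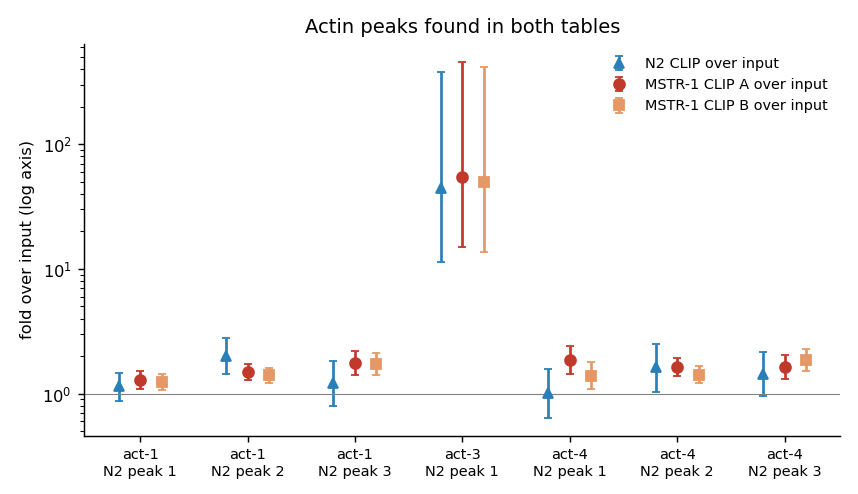
Fold over the input, on a log axis, for the 7 N2 actin peaks (triangles) and for the MSTR-1 peaks that overlap them in library A (circles) and library B (squares). Bars are exact 95% intervals of counting error, and each act-3 point lies above 40 while all others lie at or below 2.002.

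Genes whose products bind, turn over or fold actin, together with 3 genes of actin-related proteins, were examined as a group of 62. Of these, 21 had a peak over no other gene, 51 such peaks in all, and 0 peaks were higher or lower in limma's fit, against 12.7% higher and 1.76% lower of all peaks (5 higher and 0 lower at an unadjusted p under 0.05; edgeR and DESeq2 also called 0). Their median log2 change was 0.46, beside 0.45 over all peaks. It was 0.87 over 31 peaks of crosslinking and membrane linkage genes, 0.54 over 9 peaks of nucleation, turnover and capping genes and -0.43 over 9 peaks of the CCT chaperonin, which folds actin. Over the 2 peaks of the actin-related protein gene arp-1 the median was 0.44. Many of these peaks held few reads, so that only large changes could be called. The cct-1 peak, for example, had 1, 18 and 8 reads in library A, library B and the input (SE 1.13). Over all listed peaks the median was also only 8 input reads. These lists were not tested against each other.

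Genes of this group were ranked by CLIP reads in peaks over no other gene. Peaks shared with another gene do not count, so eps-8, with 121 input reads over all its peaks but 3 in its own, ranks low. The first 6 genes were led by clik-1, a calponin-like protein of muscle. It had 221, 410 and 110 reads in library A, library B and the input (mean fold 1.60 over 6 peaks). The filamin gene fln-1, an actin crosslinker, had 99, 112 and 74 reads (0.847). For anc-1, which links nuclei to actin, there were 53, 108 and 24 reads (1.85). The coronin gene pod-1 had 60, 88 and 35 (1.22). The thin filament protein gene unc-87 had 59, 82 and 16 (2.55). The chaperonin subunit gene cct-8 had 13, 53 and 20 (0.847). The lowest adjusted p among their peaks was 0.061, at clik-1.

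Muscle partners of actin are given beside these. Tropomyosin and troponin genes of the thin filament had 3 of 17 peaks higher and 0 lower, with a median log2 change of 0.54, and myosin and paramyosin genes of the thick filament had 13 of 43 higher and 0 lower, with a median of 0.79, against 12.7% higher of all peaks. The counts of higher peaks were 0 and 5 with TMM scaling (8.86% of all peaks), 1 and 10 with edgeR (10.5%), 0 and 3 with DESeq2's test (11.5%) and 0 and 0 with limma without a trend, and with column totals 15 and 30 were lower (51.1%). The median over the 14 peaks of act-1 to act-4 was 0.74.

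The genes nearest to the summed act-1 to act-4 by the distance of their log2 ratios to the input in both CLIP libraries, among 803 genes with at least 10 input reads, were pam-1, ssp-11 and col-170, followed by K11H3.9, K11H3.t2 and twk-48, at distances of 0.021 to 0.050. The last 3 tie because they share 1 peak. Nearest to act-5 were nuo-4, adss-1, dkc-1, har-1 and nuo-5, at distances of 0.020 to 0.075. A likeness over 2 ratios that share 1 input says little beyond these values.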

How the data were processed

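Both deposited peak tables were used. The tools that the submitters' processing notes name are STAR, UMI-tools, cutadapt and deepTools. Tool versions, peak calling, genome build and the placement of multi-mapping reads were not stated in the sources used here. Each deposited library column is a signal, the reads of a peak divided by 1 size factor (MSTR-1 table: 0.921 for A, 1.53 for B, 0.693 for the input. N2 table: 0.591 for N2 CLIP, 1.69 for the input). Whole reads were recovered from 100% of values within 0.02 of a read. The fold that the authors deposited is the sum of both CLIP columns, or N2 CLIP, over the input. Reads in peaks numbered 2438775, 3592308 and 408945 in the MSTR-1 table and 934439 and 302551 in the N2 table. The control column was read as the input, the only such library.

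Peaks were named with the WBcel235 gene table without 15363 piRNA genes, and positions are as deposited, with length taken as end minus start. The design named edgeR on counts or, for scaled values, limma. As the columns are scaled, limma 3.58.1 (R 4.3.3) with a variance trend and a pseudocount of 1 was used on log2(scaled reads + 1), which understates the change of low peaks. The input, a single library, was taken to vary as the CLIP libraries do, and the spread was pooled over peaks of similar level. Calls are at an adjusted p of 0.05. edgeR 4.0.16 and DESeq2 1.42.0 on recovered reads were alternatives. limma and edgeR, but not DESeq2, were also run on simulated counts. These gave the input the same spread as the CLIP libraries, so they cannot test that assumption. Folds per library carry exact conditional intervals (scipy 1.17.1). Named genes were the actins, members of the actin-associated list with a call or among its 6 genes with most CLIP reads, and the 5 nearest genes with ties, leaving out those that share a peak with an actin. For the actin-associated list, calls and reads were taken from peaks over no other gene. Members and lists were chosen with earlier results of these data known.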

Additional observations from a re-analysis of the deposited data

How the results depend on the processing

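The log2 change of act-1 to act-4 summed was 0.77, and it was 0.36 with TMM, 0.43 with DESeq2's size factors (adjusted p = 0.082) and -1.49 with column totals. It stayed at 0.77 without a variance trend but lost its call (limma adjusted p = 0.54). That of act-5 was -0.50 with TMM, -0.43 with DESeq2's size factors, -2.35 with column totals, now called lower, and 0.064 with peaks of a deposited fold of at least 2. The difference between act-5 and act-1 to act-4 lost its call without a trend (-0.86), with DESeq2's test (-0.85), with peaks of a deposited fold of at least 2 (-0.77, limma adjusted p = 0.060) and relative to act-2 alone (-0.075). Actin peaks called higher numbered 5 with TMM or DESeq2's size factors, 4 with column totals or DESeq2's test and 0 without a trend, and 13 were lower with column totals. Among peaks of actin-associated genes 22 were lower with column totals, and 1, over clik-1, was higher when only peaks of a deposited fold of at least 2 were fitted (limma adjusted p = 0.042). With TMM and with DESeq2's size factors the first act-1 peak fell to -0.10 and -0.065, the first act-2 peak to -0.10 and -0.067, and the second act-5 peak to -0.36 and -0.32. With column totals the act-1 peaks stood at -1.74, -1.54 and -1.28, the first act-2 peak at -1.72, the last 3 act-4 peaks at -1.39, -1.47 and -1.28 and the second act-5 peak at -1.98. The third act-5 peak, at -0.036, was 0.094 with edgeR and 0.075 with DESeq2. N2 folds with column totals were 0.129, 0.226 and 0.137 along act-1 and 0.115, 0.183 and 0.164 along act-4, and 5.02 at act-3. The cause was not tested.

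With 1 CLIP library left out, a value with no test, the change was 0.73 to 0.81 for act-1 to act-4, -0.23 to 0.052 for act-5 and -1.05 to -0.68 for act-5 relative to them. Of the values recomputed under an alternative, 239 kept direction and side of the threshold or moved within their error, 24 reversed, 33 lost a call or fell, 10 gained and 14 moved, 13 of these being copy shares over peaks of a deposited fold of at least 2. A minimum of 10 reads removed no peak, so the 25 values from that setting among the 239 could not differ. Leaving out library A gave 21 of the 239 and leaving out library B gave 21, with no threshold to cross. Fitting only peaks on the gene's own strand was not run, since the gene table gives no strand. No paired analysis was possible, because there is 1 input and 1 N2 library for 2 MSTR-1 CLIP libraries. The columns also do not say which CLIP library is which replicate. Input depth limits the folds, with 8 reads over act-3, 117 over act-5 and 129 over act-2.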
